A study of Mus musculus with 7 samples.

Results

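The suppressors of cytokine signalling (SOCS) family has 8 genes in the mouse, Socs1 to Socs7 and Cish. Each was found by its symbol in the deposited expression table, and all 8 were present among the 23420 gene rows. The values come from bulk RNA sequencing of flash-frozen cardiac ventricle of 7 mice (the tissue label itself reads heart), made as stranded libraries of total RNA. The 4 control mice were labelled Ctla4+/+;Pdcd1-/- and unaffected. The 3 mice with myocarditis that models damage by immune checkpoint inhibitors (ICI-myocarditis) were labelled Ctla4+/-;Pdcd1-/-. The animals were 3 to 6 weeks old and labelled as untreated, so the model rests on genotype and not on an inhibitor given to the animals. Every control also lacked Pdcd1 by its label. The series compared diseased with unaffected hearts. The comparison here asks which of these feedback inhibitors differed between them.

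SOCS proteins end signals of the JAK-STAT pathway. Cytokine receptors activate Janus kinases (JAK), which phosphorylate STAT transcription factors, and STAT factors in turn switch on SOCS genes, so that the product of the pathway restrains it. Each SOCS protein has an SH2 domain that binds phosphotyrosine and a SOCS box that recruits elongins and a Cullin-RING ubiquitin ligase to the bound protein. SOCS1 and SOCS3 also carry a kinase inhibitory region that blocks JAK enzymes directly. SOCS1 is best known for limiting interferon gamma signals, and SOCS3 for limiting signals through the gp130 receptor and STAT3, in the heart as in other tissues. CIS (the product of Cish) and SOCS2 are typical products of STAT5 that restrain interleukin-2-type cytokines and growth hormone. SOCS4 to SOCS7 are less tied to cytokines and have been linked to growth factor and insulin receptors.

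The promoters of Socs1 and Socs3 are shown because these are the members that rose, and because the letters that STAT complexes are known to bind can be read in them. RefSeq promoter sequence (GRCm38.p6) was matched by symbol for 4 of the 8 members, namely Socs1, Socs3, Socs4 and Cish. The first window holds the 250 bases before the Socs1 start, on the minus strand of chr16:10785537-10785786. The second holds the first 165 bases of the Socs3 window, up to the first base in an annotated exon. They run from base 250 to base 86 before the RefSeq start, on the minus strand of chr11:117969452-117969616. This stretch lies inside the GENCODE M21 span of Socs3, which reaches 117970047. Capitals mark the matched letters.
Socs1: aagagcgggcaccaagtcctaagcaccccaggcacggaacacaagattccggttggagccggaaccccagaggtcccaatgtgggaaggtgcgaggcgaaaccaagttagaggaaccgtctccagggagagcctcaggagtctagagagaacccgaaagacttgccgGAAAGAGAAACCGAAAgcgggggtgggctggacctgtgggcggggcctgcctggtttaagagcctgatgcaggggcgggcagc
Socs3: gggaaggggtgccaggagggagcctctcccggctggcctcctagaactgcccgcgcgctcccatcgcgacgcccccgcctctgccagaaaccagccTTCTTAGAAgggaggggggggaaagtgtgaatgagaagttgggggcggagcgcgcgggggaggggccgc
In Socs1 the capitals are 2 overlapping matches to the core of the interferon-stimulated response element, GAAANNGAAA. They run from base 83 to base 74 and from base 77 to base 68 before the start, and share 4 letters. In Socs3 the capitals are 1 match to the interferon gamma-activated sequence, TTCNNNGAA, from base 154 to base 146 before the start. Both strands were searched. Among 32851 RefSeq promoter windows of 250 bases, 2.98% held the first motif and 7.02% the second. The full windows of Socs4 and Cish held neither. All 250 bases of the Cish window lie in annotated exons of that gene, so no Cish sequence outside exons was searched. A match describes letters only, since no binding was measured here.

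Between 20931730 and 39037176 reads per library were assigned to genes. Values are given as normalized counts, which are read counts divided by the authors' size factor of the library. Control 2 was the shallowest library and stood apart from the other controls in its immune transcripts. Its count of Ptprc, which encodes the leukocyte surface protein CD45, was 2874 against 483 to 1108 in the other 3. The log2 difference of each member is therefore given with and without it. Of the genes named in the genotypes, Ctla4 was counted at 29.2 to 113 in the controls and 251 to 373 in ICI-myocarditis, and Pdcd1 at 2.50 to 244 and 1096 to 1481. Which part of Pdcd1 was deleted is not given in the sources used here, so reads on either gene do not check the genotype labels. Nothing in the labels says how the animals were related, so p-values measure the spread between these libraries.

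Socs1 and Socs3 rose in ICI-myocarditis, by 17.0-fold and 8.33-fold in the group means. Socs2 and Cish were 1.59-fold and 1.57-fold higher in the means without passing the test, and Socs4, Socs5, Socs6 and Socs7 had mean ratios between 0.888 and 0.979. Each gene was tested with limma, a linear model fitted over 15258 genes on log2(normalized count + 1), with Benjamini-Hochberg adjustment over all of them and a threshold of 0.05. By that rule 2 of the 8 members were called, both higher. Beside them, 15.7% of all genes tested were called in either direction, 11.7% higher and 4.0% lower. The libraries of the groups did not overlap for 3 members, Socs1, Socs3 and Socs2, all higher in ICI-myocarditis, as for 17.3% of all genes tested (28.6% in either direction). The same 3 members had an unadjusted limma p under 0.05, as had 30.1% of all genes tested. The median log2 difference over the 8 members was 0.32, against -0.02 over all genes tested.

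**Figure D1:**
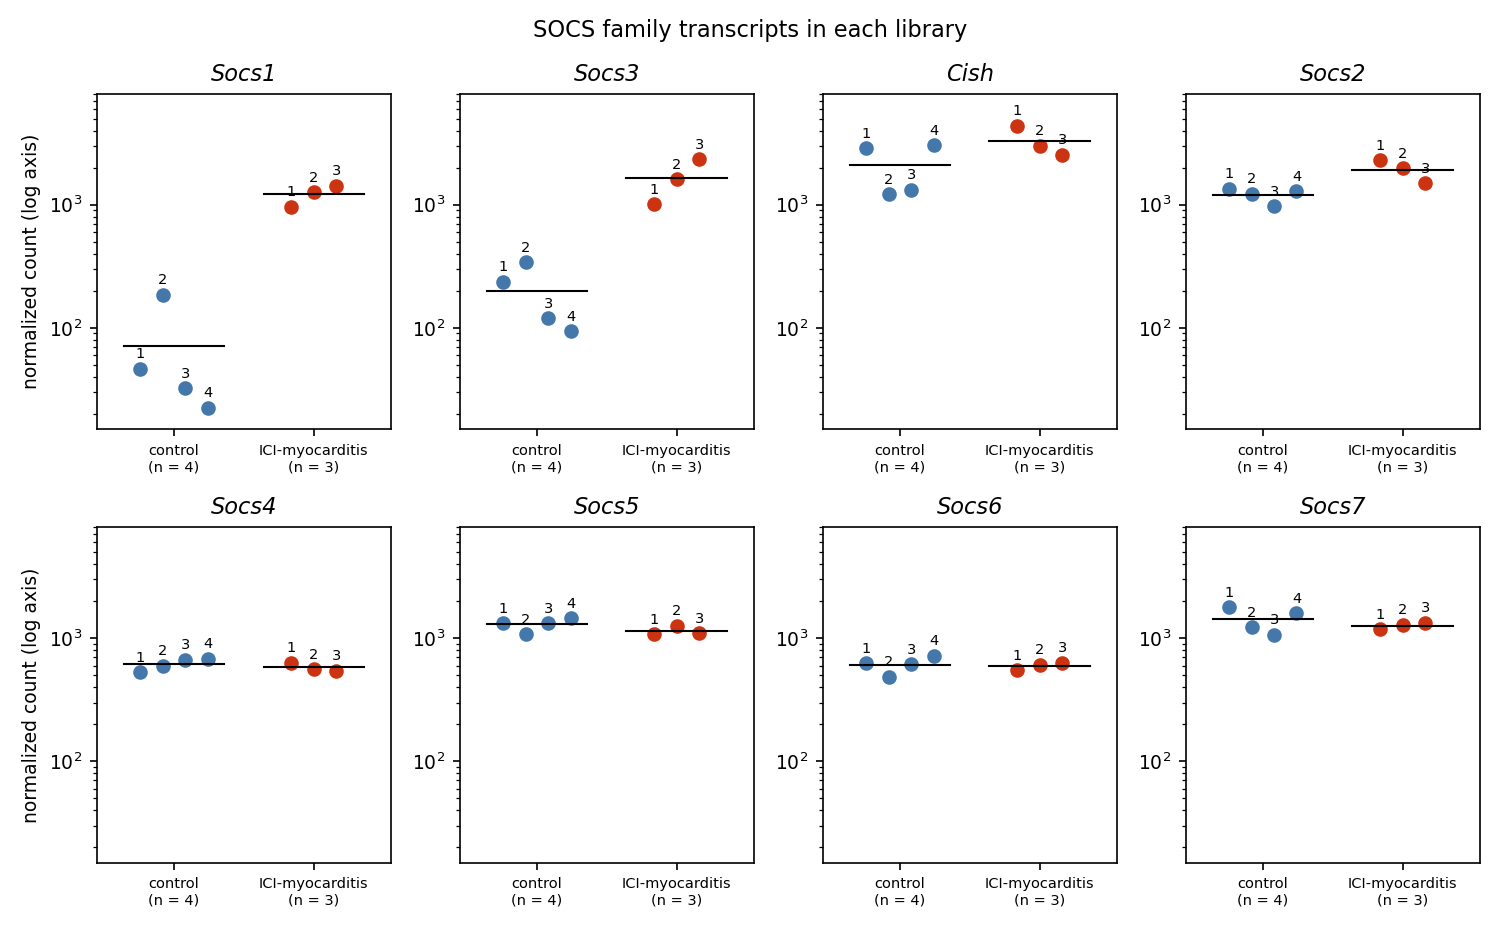
Normalized count of each SOCS family member (vertical log axis) in the 4 control (blue) and 3 ICI-myocarditis (red) libraries. Points are libraries labelled by replicate number and lines are group means. The groups lie apart for Socs1, Socs3 and Socs2 and overlap for the other 5 members.

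Socs1 (chr16:10782240-10785536, minus strand, GRCm38) had normalized counts of 46.4, 185, 32.4 and 22.5 in controls 1 to 4. In ICI-myocarditis 1 to 3 they were 966, 1260 and 1428. Every diseased heart was above every control, and control 2 was the highest control by a wide margin. The means were 71.6 ± 76.3 (SD, n = 4) and 1218 ± 234 (SD, n = 3). The log2 difference was 4.55 (SE 0.610, 95% interval 3.18 to 5.93, limma adjusted p = 0.00363). Without control 2 it was 5.17 (limma adjusted p = 1.5e-05). No other member varied as much among the controls, where the highest library was 8.22 times the lowest. Within ICI-myocarditis that ratio was 1.48.

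Socs3 (chr11:117966079-117970047, minus strand) was counted at 237, 343, 119 and 93.8 in controls 1 to 4. The 3 diseased hearts had 1005, 1608 and 2344. Again the groups did not overlap and control 2 was the highest control. The means were 198 ± 115 (SD, n = 4) and 1652 ± 671 (SD, n = 3). The log2 difference was 3.16 (SE 0.463, 95% interval 2.11 to 4.20, limma adjusted p = 0.00411), and 3.48 without control 2 (limma adjusted p = 0.00035). Unlike Socs1, the gene was spread within both groups, by 3.65 times among controls and 2.33 times among diseased hearts. Both genes stayed past the threshold in all 18 alternative analyses, Socs1 between 4.05 and 5.17 and Socs3 between 2.86 and 3.48. The authors' deposited table lists log2 fold changes of 4.09 for Socs1 and 3.06 for Socs3.

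**Figure D2:**
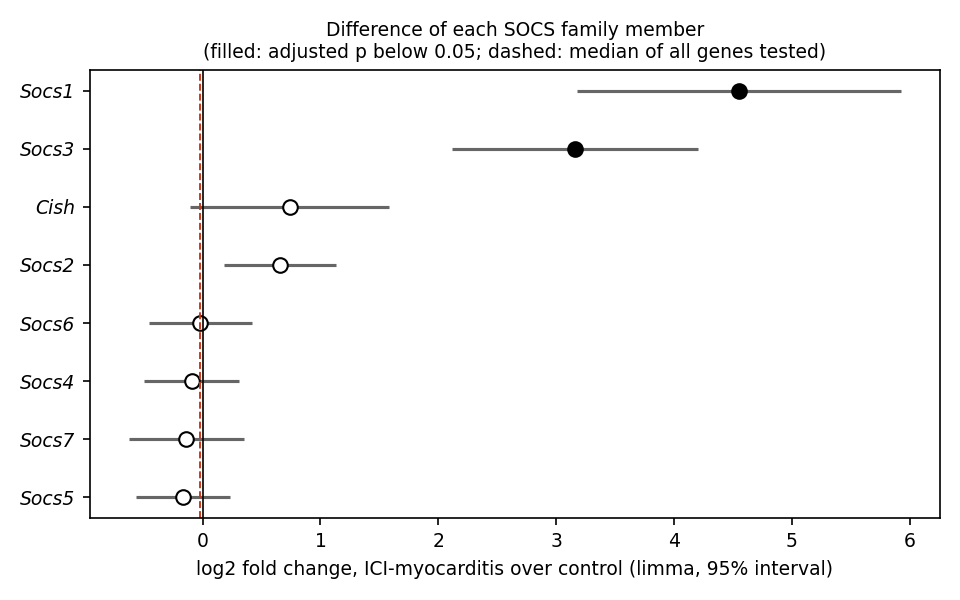
Log2 fold change of each member, ICI-myocarditis over control, with its 95% interval from limma (horizontal axis). Filled points passed the adjusted threshold, and the dashed line is the median of all genes tested. Socs1 (4.55) and Socs3 (3.16) stand to the right of the other 6 members, and the intervals of Cish and Socs4 to Socs7 include 0.

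The STAT5-linked members gave smaller differences. Socs2 (chr10:95385362-95417180, minus strand), which restrains growth hormone signalling, had normalized counts of 1353, 1231, 971 and 1284 in controls 1 to 4. In ICI-myocarditis 1 to 3 it had 2297, 1978 and 1495. The groups were apart, but by little: the lowest diseased heart stood just above the highest control. The log2 difference was 0.66 (SE 0.211, 95% interval 0.18 to 1.13, limma adjusted p = 0.0652, unadjusted p = 0.0119), and 0.67 without control 2 (limma adjusted p = 0.0699). The interval over all libraries allows a mean between 1.14 and 2.19 times that of controls. The call depended on the tool, since Socs2 passed with DESeq2 (adjusted p = 0.0261), limma-voom with quality weights (adjusted p = 0.00565) and library-size scaling (limma adjusted p = 0.0357) but in none of the other 15 alternatives. In the authors' deposited table its adjusted p is 0.032.

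Cish (chr9:107296026-107302784, plus strand), whose product competes for the receptor sites that STAT5 docks on, was counted at 2887, 1214, 1323 and 3029 in controls 1 to 4. The diseased hearts had 4384, 3022 and 2552. The groups overlapped, and the controls fell into a higher and a lower pair, with controls 1 and 4 inside the diseased range. The log2 difference was 0.74 (SE 0.374, 95% interval -0.10 to 1.58, limma adjusted p = 0.222), and 0.52 without control 2 (limma adjusted p = 0.328). Only limma-voom with quality weights called it (adjusted p = 0.0498). In the GENCODE M21 annotation 7.5% of its exonic bases are shared with an antisense gene and 4.1% with a pseudogene on the opposite strand. Whether strand was used in counting is not given in the sources used here.

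The 4 members less tied to cytokines showed no called difference. Socs4 (chr14:47276931-47296102, plus strand), linked to epidermal growth factor receptor turnover, ranged from 530 to 679 in controls and from 544 to 630 in ICI-myocarditis. Socs5 (chr17:87107679-87137839, plus strand), linked to the same receptor, ranged from 1081 to 1448 and from 1082 to 1264. Both pairs of ranges overlapped almost fully. Socs6, linked to insulin receptor and KIT signalling, was counted at 485 to 718 in controls and 553 to 630 in diseased hearts. Socs7 (chr11:97362551-97398542, plus strand), which binds insulin receptor substrates, was counted at 1066 to 1794 and 1180 to 1333. For these genes too every diseased heart lay within the control range.

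The intervals say how large a difference remains possible. For Socs4 the log2 difference was -0.09 (95% interval -0.50 to 0.31, limma adjusted p = 0.778) and for Socs5 it was -0.17 (-0.57 to 0.23, limma adjusted p = 0.583). For Socs6 it was -0.02 (-0.45 to 0.42, limma adjusted p = 0.962) and for Socs7 it was -0.14 (-0.63 to 0.35, limma adjusted p = 0.719). With library-size scaling, which moved the median of all genes up by 0.16, Socs4, Socs6 and Socs7 turned slightly positive, and Socs6 also changed sign without ICI-myocarditis 1 or without control 4. As changes of the level, the 4 intervals lie between -35.2% and 33.4%. Among diseased hearts the highest library of Socs4 to Socs7 was 1.13 to 1.17 times the lowest, against 1.48 to 2.33 times for the other 4 members. Without control 2 the log2 differences were -0.11 for Socs4, -0.25 for Socs5, -0.13 for Socs6 and -0.20 for Socs7, with none called.

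The make-up of the family changed with these values. Its summed normalized count was 8793, 6365, 6117 and 8877 in controls 1 to 4 and 12097, 11592 and 11424 in ICI-myocarditis 1 to 3. Socs4 to Socs7 together gave 3392 to 4448 in controls and 3445 to 3724 in diseased hearts, so the 3 diseased sums lay inside the control range. Socs1 and Socs3 together made up 3.22%, 8.29%, 2.48% and 1.31% of the summed counts in controls 1 to 4. In ICI-myocarditis 1 to 3 they made up 16.3%, 24.7% and 33.0%, each above every control. Counts favour long transcripts, so the shares were also taken per kilobase. Of the family's level per kilobase of the longest coding transcript, Socs1 and Socs3 held 1.82% to 11.3% in controls and 18.7% to 39.3% in diseased hearts. Per kilobase of all annotated exons they held 3.20% to 18.8% and 32.8% to 55.5%, so the size of the share depended on the length used and the separation of the groups did not.

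Levels of different members can be compared only per length, and the order depended in part on the length used. Per kilobase of the longest coding transcript, the control means ran from Cish (741) through Socs2 (544), Socs5 (278), Socs7 (203), Socs6 (101), Socs4 (90.0) and Socs3 (77.7) to Socs1 (24.6). In that order the control ranges of Socs2 and Socs5 and of Socs7 and Socs6 did not overlap, while those of the other neighbours did. In ICI-myocarditis the order was Cish (1165), Socs2 (866), Socs3 (647), Socs1 (419), Socs5 (247), Socs7 (181), Socs6 (99.1) and Socs4 (84.1). Socs3 and Socs1 had moved from ranks 7 and 8 to ranks 3 and 4, and the ranges of Socs1 and Socs5 were apart. Those of Cish and Socs2, Socs2 and Socs3, Socs3 and Socs1, and Socs6 and Socs4 overlapped. With the union of annotated exons as length, Cish was again highest and Socs1 lowest in controls, but in ICI-myocarditis Socs3 (572) stood above Cish (517) and Socs1 (419), with overlapping ranges.

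The diseased hearts did not rank alike for all inducible members. Socs1 and Socs3 were lowest in ICI-myocarditis 1 and highest in ICI-myocarditis 3, whereas Cish and Socs2 were highest in ICI-myocarditis 1 and lowest in ICI-myocarditis 3. Over all 7 libraries the Pearson correlation of log2 values was 0.98 between Socs1 and Socs3 and 0.80 between Cish and Socs2. Across these pairs it was 0.36 between Socs1 and Cish and 0.38 between Socs3 and Cish, but 0.77 between Socs1 and Socs2 and 0.73 between Socs3 and Socs2. These describe 7 libraries that share the group difference and the scaling, and no test was made.

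Ratios within a library set a member beside another gene and depend on scaling only through the pseudocount of 1. None of 8 such ratios passed the threshold after adjustment, and the design could not give an exact p below 0.0286. Socs3 relative to Stat3 was 1.58% to 6.08% in controls and 13.0% to 21.3% in diseased hearts, a log2 difference of 2.51 (exact two-sided permutation p = 0.0286, adjusted over 8 ratios 0.0762). Every diseased heart lay above every control. Socs2 relative to Stat5b was 33.1% to 41.2% in controls and 57.3% to 76.4% in diseased hearts, a log2 difference of 0.89 with the same p-values. Cish relative to Stat5a was 94.0% to 220% and 255% to 429%, a log2 difference of 1.22 (exact two-sided permutation p = 0.0571, adjusted 0.0762). No library of one group reached into the other in either ratio.

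Further ratios set Socs1 and Socs3 beside Ptprc, as a measure of leukocyte transcripts, and members beside each other. Socs1 relative to Ptprc was 3.01% to 9.79% in controls and 12.1% to 18.3% in diseased hearts, a log2 difference of 1.41 (exact two-sided permutation p = 0.0571, adjusted 0.0762). Socs3 relative to Ptprc was 10.9% to 49.2% and 12.6% to 23.4%, a log2 difference of 0.02 (exact p = 0.971, adjusted 0.971). For Socs3 the diseased hearts lay within the control range, whose top was control 1. Socs1 relative to Socs3 was 19.9% to 54.1% in controls and 60.9% to 96.1% in diseased hearts, a log2 difference of 1.40 (exact two-sided permutation p = 0.0571, adjusted 0.0762). Cish relative to Socs2 was 98.6% to 236% and 153% to 191%, a log2 difference of 0.08 (exact permutation p adjusted over 8 ratios 0.947). In bulk tissue, more cells of a type and more RNA per cell cannot be told apart in any of these values.

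**Figure D3:**
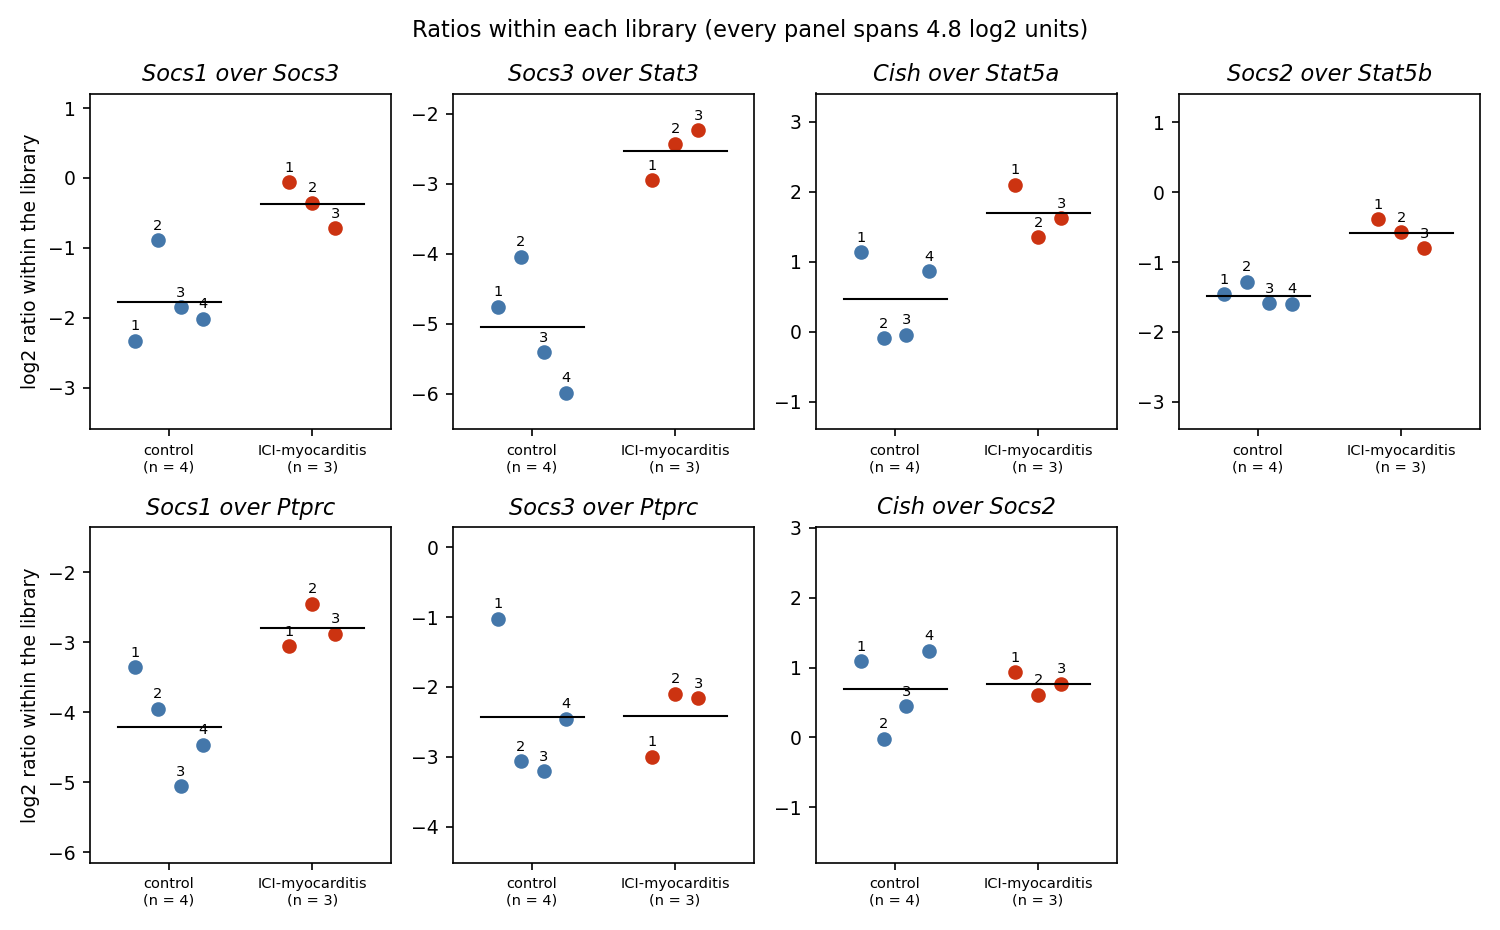
Log2 ratio of normalized counts of the named gene pairs in each library (vertical axis, every panel spanning the same number of log2 units), for 4 control (blue) and 3 ICI-myocarditis (red) libraries with group means as lines. The groups are apart for the ratios of Socs3 to Stat3, Cish to Stat5a and Socs2 to Stat5b, for Socs1 to Socs3 and for Socs1 to Ptprc, and overlap for Socs3 to Ptprc and Cish to Socs2.

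Most markers of T cells and macrophages were higher in the same hearts as Socs1 and Socs3. The summed normalized count of 9 T cell genes was 188 to 1882 in controls, with control 2 the highest, and 7560 to 11522 in ICI-myocarditis, and all 9 were called higher. Of 10 macrophage and monocyte genes 8 were called higher, and their sum was 8022 to 11091 in controls. In ICI-myocarditis 1 to 3 that sum was 30092, 34453 and 57309, the same order of libraries as Socs1 and Socs3. The fibroblast sum (69808, 96670 and 115155) and the neutrophil sum (326, 484 and 884) had that order too. The sums of T cell genes (8112, 7560 and 11522) and natural killer cell genes (912, 664 and 1051) did not, nor did those of the other cell type lists. The sum of 10 cardiomyocyte genes was 1586350 to 3548099 in controls and 903655 to 1707985 in diseased hearts, with none called. Of 8 endothelial genes 4 were called lower (Kdr, Erg, Emcn and Tek), and their sum was 31639 to 81190 in controls and 23290 to 30024 in diseased hearts, with no overlap. Of 6 fibroblast genes 1 was called, Col1a1, and it was higher. Of 4 natural killer cell genes tested 2 were called higher, while of 5 B cell genes and 3 neutrophil genes tested 1 each was. The neutrophil call was Csf3r, with a mean of 270 normalized counts over the 7 libraries, against 25.4 for S100a9 and 19.0 for S100a8. The neutrophil sum is thus mostly Csf3r, while S100a8 and S100a9 had log2 differences below 0 and were not called. In controls the neutrophil sum was 53.4 to 220, and the fibroblast sum was 60313 to 99579, overlapping the diseased hearts. Among all genes tested 11.7% were called higher and 4.0% lower. Klra8 of the natural killer list and Foxn1 of the thymus list were at 0 in all 7 libraries. The part of these cells in the differences of the members was not tested.

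The genes closest to each member over the 7 libraries were sought among 12327 tested genes with a mean of at least 50 normalized counts, as a description in which the group difference dominates for Socs1 and Socs3. For Socs1 they were Pkp3, a plakophilin (Pearson r = 0.999), Ppfia4 (0.997) and Klrb1b, a natural killer cell receptor (0.997). For Socs3 they were Srgap3 (0.999), Shisa5 (0.996) and Arl4c (0.996). Cish was closest to Rasd1, a small GTPase induced by steroids (0.980), and Socs2 to Tppp3 (0.961). For the other members the closest were Zfp943 for Socs4 (0.996), Satb1 for Socs5 (0.985), Sfr1 for Socs6 (0.989) and Cxx1a for Socs7 (0.977).

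Upstream of the SOCS genes, the signalling machinery changed in places. Calls in this and the following lists stand beside 11.7% of all genes tested called higher and 4.0% called lower. Of the 4 JAK kinases only Jak2, which serves gp130 and the interferon gamma receptor, was called higher (log2 difference 0.82, SE 0.222, limma adjusted p = 0.0359). Without control 2, 3 of the 4 were called, and without any of ICI-myocarditis 2, ICI-myocarditis 3, control 1, control 3 or control 4 none was. Among the STAT factors, Stat2, which acts in type I interferon signals, was higher by 1.67 and Stat4, which acts downstream of interleukin-12, by 3.89 on the log2 scale. Stat3 (0.65, limma adjusted p = 0.081), Stat5a (-0.48, limma adjusted p = 0.128) and Stat5b (-0.23, limma adjusted p = 0.464) were not called. The result for Stat3 depended on the tool. It was called in 3 of the 18 alternatives, and its adjusted p in the authors' deposited table is 0.0138. Stat2 (1.53 to 1.70) was not called without ICI-myocarditis 1, ICI-myocarditis 2, ICI-myocarditis 3, control 1 or control 3, and Stat4 (3.68) not without ICI-myocarditis 3.

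Among 30 cytokines and hormones that signal through JAK enzymes, 14 were abundant enough to test, 10 were called higher and 1, the cardiotrophin gene Ctf1, lower. The filter of 10 normalized counts in 3 libraries could be met by the 3 diseased hearts alone. Genes near 0 in controls could thus enter the test only when higher in disease, so the count of 10 depends in part on the filter. Ifng, which encodes interferon gamma, was counted at 2.02, 55.5, 4.47 and 0 in controls 1 to 4. The diseased hearts had 244, 283 and 583. Control 2 was again the highest control, as it was for Ptprc and for the sum of T cell genes. The part of Ifng in the Socs1 values was not tested. Il27 (log2 difference 4.13), Ebi3 (2.52) and Il7 (1.69) had the lowest p-values of the list. Il6, the classical inducer of Socs3, was too low to test, with 0 to 3.35 in controls and 6.14 to 19.9 in diseased hearts. The authors' deposited table lists Il6 with a log2 fold change of 2.73 and an adjusted p of 0.041. The count of 10 was 4 without ICI-myocarditis 3 and 5 without ICI-myocarditis 1 or ICI-myocarditis 2. The filter stayed at 3 libraries there, so part of this fall can be genes no longer tested. Il27 was tested in 15 of the 18 alternatives and called in all 15, and Osm was tested in 14 and called in 13. Ctf1 was not called without ICI-myocarditis 2 (-1.77), ICI-myocarditis 3 (-1.06), control 1, control 3 or control 4.

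Of 35 receptor genes tested 16 were called higher and 1, the prolactin receptor gene Prlr, lower, and the median was 0.58. Il2rb, a chain of the interleukin-2 and interleukin-15 receptors, was higher by 5.32 on the log2 scale, Csf2rb by 3.18 and Il10ra by 2.85. Il6ra, the interleukin-6 receptor chain whose signals SOCS3 limits, was higher by 1.49 (SE 0.275, limma adjusted p = 0.0085). Its partner Il6st, which encodes gp130, was at 6841 to 9528 in controls and 7633 to 9084 in diseased hearts. The growth hormone receptor gene Ghr, whose signals SOCS2 limits, was at 3197 to 6567 and 1866 to 3277 (log2 difference -0.85, limma adjusted p = 0.0991, and called without control 2 at -1.05). The count of receptors called higher was 9 without ICI-myocarditis 3, and Prlr was not called without control 1 (-2.40) or control 3 (-2.27).

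Other inhibitors of the pathway were compared with the SOCS family. Of 13 genes 5 were called higher: Ptprc by 3.14, Ptpn6 by 2.91, Usp18 by 1.97, Ptpn1 by 1.60 and Cblb by 1.22 on the log2 scale. Ptprc and Ptpn6 encode phosphatases of blood cells, Usp18 an interferon-induced inhibitor of the type I interferon receptor, and Ptpn1 a phosphatase that acts on JAK2. Beside them the log2 differences were 4.55 for Socs1 and 3.16 for Socs3. The count was 3 without control 3, when Usp18 and Cblb were not called, and Usp18 was also lost without ICI-myocarditis 1 (1.73), ICI-myocarditis 2 or control 1, and Cblb without ICI-myocarditis 3 (0.97). The 9 partners that join the SOCS box to its ubiquitin ligase gave no call, and ranged from -0.32 (Cul5) to 0.17 (Arih2).

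**Figure D4:**
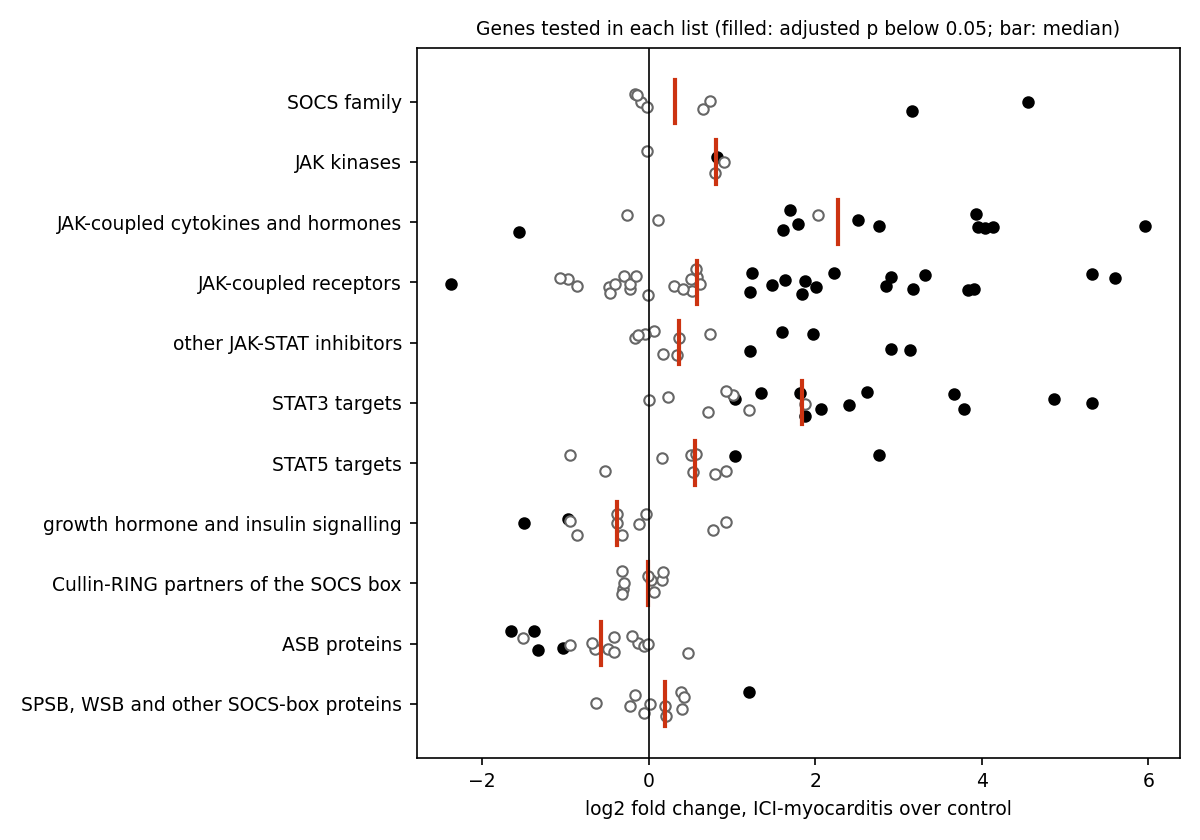
Log2 fold change, ICI-myocarditis over control (horizontal axis), of every tested gene in the SOCS family and in 10 related lists. Filled points passed the adjusted threshold and the bars are list medians. The SOCS family has 2 filled points of 8, the STAT3 targets have 11 of 18, and the Cullin-RING partners have none.

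Other families that carry a SOCS box did not follow Socs1 and Socs3. Of 16 tested Asb genes, which encode ankyrin-repeat proteins, none was called higher and 4 were called lower, beside 4.0% of all genes tested. These were Asb15, Asb14, Asb10 and Asb2, by -1.65, -1.37, -1.33 and -1.03 on the log2 scale. The median of the 16 genes was -0.57. The count of lower genes was unstable. It was 5 without control 2, 2 without ICI-myocarditis 1, 1 without ICI-myocarditis 2, and 0 without ICI-myocarditis 3, control 1, control 3 or control 4. The 10 cardiomyocyte genes given above all had log2 differences below 0, but none was called and their sums overlapped between the groups. Their part in the Asb values was not tested. Of 11 genes of the SPSB, WSB and similar families 1 was called, Spsb2, higher by 1.20, beside 11.7% of all genes tested called higher. Spsb2 was not called without ICI-myocarditis 1, ICI-myocarditis 3 or control 3.

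Targets of STAT3 and STAT5 were read beside the inhibitors. Of 18 STAT3 targets 11 were called higher with a median of 1.84, with Timp1, an inhibitor of metalloproteinases (4.87), Fgl2 (2.63) and Il1rn (5.32) first by p-value. Of 10 STAT5 targets 2 were called higher, Osm (2.77) and the kinase gene Pim1 (1.03), and the median was 0.55. The share called higher among all genes tested was 11.7%. The STAT5 count was 3 without control 2, 1 without control 1, and 0 without ICI-myocarditis 2, ICI-myocarditis 3 or control 3. In this list Osm was tested in only 14 of the 18 alternatives, since the filter stayed fixed when a library was left out. The STAT5-linked members Cish (0.74) and Socs2 (0.66) lay close to the median of this list, and Socs3 (3.16) lay above the median of the STAT3 targets.

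In growth hormone and insulin signalling, which SOCS2, SOCS6 and SOCS7 are known to touch, 2 of 11 genes were called, both lower. These were the adaptor gene Grb14 (-1.49) and Irs1, the insulin receptor substrate (-0.96), beside 4.0% of all genes tested called lower. The count of lower genes in this list was 3 without control 2, 1 without ICI-myocarditis 2, and 0 without any other library. Igf1, the growth factor induced by growth hormone, was at 913 to 1440 in controls and 1253 to 2796 in diseased hearts (log2 difference 0.93, limma adjusted p = 0.0731, and called without ICI-myocarditis 1 at 1.30).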

How the data were processed

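RNA of 4 control and 3 ICI-myocarditis hearts was measured, with groups and replicate numbers from the labels. The submitters' processing notes name STAR 2.7.3 and GRCm38/mm10. The counting program and use of strand are not given in the sources used here. The deposited values are a normalized signal, gene read counts divided by the authors' size factor per library. Whole reads could be recovered by dividing by a step fitted to each library, which started from its smallest value. By this 100% of values came out whole, with a largest distance from a whole number of 0.00034. In control 1 the step was 1.01, so near 1 that this is a weaker sign. The authors' deposited table also holds a log2 fold change, a score that is their test statistic, and a p-value with its adjusted p-value.

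limma (version 3.58.1, R 4.3.3) with trended, robust variance was run on log2(normalized count + 1) of genes that reached 10 normalized counts in 3 or more libraries; this scale understates changes of low genes. Within-library ratios had an exact two-sided permutation test over 35 splits. edgeR 4.0.16, DESeq2 1.42.0 and limma-voom on recovered reads, other pseudocounts, filters and scalings, the replicate number as a block and leaving out each library were alternatives. The filter still asked for 3 libraries when a library was left out, so genes low in controls could go untested. The tests were checked on simulated data. Gene models come from GENCODE M21 and promoters from RefSeq. Named by rule were the 8 members, the JAK kinases, STAT factors, other inhibitors and ubiquitin ligase partners (some as a range or count), the 3 lowest p-values of each other list, Ifng, Il6, Ghr, Igf1 and Il6st, and the genes closest to each member. Il6ra, Ctf1, Prlr, Asb15, Ctla4, Pdcd1 and the endothelial and fibroblast genes were chosen after their values were seen. The members and lists were chosen with earlier results of these data known. A few results that met these rules are not reported here.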

Additional observations from a re-analysis of the deposited data

How the results depend on the processing

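Across 18 alternatives Socs1 and Socs3 kept their direction and stayed past the threshold, and Socs5 stayed below 0 and uncalled. The family had 2 called members in 15 alternatives, 3 with DESeq2 and with library-size scaling, and 4 with limma-voom with quality weights. Socs2 was called with library-size scaling (0.82), DESeq2 (0.67) and limma-voom (0.83), and Cish with limma-voom (0.88). With library-size scaling Socs4 (0.066), Socs6 (0.14) and Socs7 (0.021) turned positive. That scaling raised the median of all genes by 0.16, and 84.3% of its calls were higher, against 74.6% in the analysis reported and 62.8% and 62.0% with DESeq2 and limma-voom. Leaving out each library in turn moved Socs6 between -0.13 and 0.06, and it was positive without ICI-myocarditis 1 (0.04) and without control 4 (0.063). Genes called numbered 2397, 2135 with edgeR, 3448 with DESeq2 and 4060 with limma-voom, and 986 (without ICI-myocarditis 3) to 3340 (without control 2) with a library left out. The log2 difference in the ratio of Socs3 to Ptprc was -0.0080 with a pseudocount of 5 and -0.24 to 0.49 with a library left out, and that of Cish to Socs2 was -0.15 to 0.27. With a library left out the exact test has too few splits for any ratio to pass after adjustment. The causes of these changes were not tested.

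The labels give both groups replicates 1 to 3 without saying that a number pairs animals. For that reason the numbers were not taken as pairs. The deviations of same-numbered libraries from their group means correlated at -0.27, -0.21 and -0.08, and those of unlike-numbered libraries at -0.48 to 0.45. Deviations from a mean of so few libraries are tied to each other, so these values cannot show whether animals were paired. With the replicate number as a block, where control 4 has no partner and adds nothing to the differences, Socs1 (4.18) and Socs3 (2.86) were still called, Socs2 (0.69, limma adjusted p = 0.147) and Cish (0.96, limma adjusted p = 0.0677) were not, Socs6 was 0.063, and 1780 genes were called. Under the block the JAK kinases, the Asb genes, the SPSB and WSB families and growth hormone and insulin signalling had 0 calls, and the STAT5 targets 1.

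The number of hearts, 4 and 3, and the spread between them limit precision, and an uncalled member is bounded only by its interval. Reads carry no molecular identifiers here, so a count can overstate the molecules sampled, by an amount that was not measured.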
